A study of Rattus norvegicus with 8 samples.

Results

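The genes described here encode the acid-base machinery of the renal intercalated cell: the proton pump subunits Atp6v1b1, Atp6v0a4, Atp6v0d2, Atp6v1g3 and Atp6v1a, the anion exchangers Slc4a1, Slc26a4 and Slc4a9, the transcription factor Foxi1 and the cytosolic carbonic anhydrase Car2. Members were taken as every probe set whose platform annotation gave exactly 1 of these symbols. This gave 12 probe sets of the 31042 tested, covering 8 of the 10 genes. Atp6v0d2 and Slc4a9 had no probe set under this rule and were not measured here. Atp6v1g3, Atp6v1a, Slc4a1 and Car2 were each read by a pair of probe sets, called brighter and dimmer below by their mean level. Both probe sets of a gene read the same animals and are not independent replicates.

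Intercalated cells are the acid-base cells of the connecting tubule and collecting duct. Type A cells place the vacuolar proton pump (V-ATPase) on the luminal side and the exchanger Slc4a1 (AE1) on the blood side, and so secrete acid, whereas type B cells place Slc26a4 (pendrin) on the luminal side and secrete bicarbonate. Carbonic anhydrase II, encoded by Car2, supplies both cell types with protons and bicarbonate. Foxi1 is a forkhead transcription factor needed for intercalated cells to form and to express these transporters. The pump has a cytosolic V1 sector that hydrolyses ATP and a membrane V0 sector that carries protons, and several of its subunits exist as isoforms of which some are enriched in intercalated cells.

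The samples were whole left kidneys of male Wistar rats, given as 8 weeks of age in the labels and fed for 24 days either a control AIN-93G diet with 0.3% phosphorus or a high-phosphorus (HP) diet with 1.2% phosphorus. The HP diet carried the extra phosphorus as potassium phosphate in place of corn starch, so the diets differed in potassium as well. RNA of 4 rats per diet was hybridized, 1 rat to an array. These were chosen by the authors from the 5 rats of each diet as the average animals by urine volume and kidney phosphorus content, and the array-to-array variation is therefore that of selected rats. In whole kidney, a change in cell numbers, in RNA per cell or in other cells that express a gene cannot be told apart.

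Promoter sequences are given for a pair of pump subunits that differ in where they are used: Atp6v1b1, the B subunit isoform of intercalated cells, and Atp6v1a, the catalytic A subunit found in every cell with a V-ATPase. Each run holds the 250 bases before the annotated start on the coding strand (RefSeq, GRCr8), at chr4:117781194-117781443 (+) for Atp6v1b1 and chr11:70067252-70067501 (+) for Atp6v1a. The annotated gene span of Atp6v1a begins earlier, at 70066800, so its run lies inside that span, before a later start. Capitals mark the forkhead core motif GTAAACA, searched on both strands and therefore also as TGTTTAC.
Atp6v1b1: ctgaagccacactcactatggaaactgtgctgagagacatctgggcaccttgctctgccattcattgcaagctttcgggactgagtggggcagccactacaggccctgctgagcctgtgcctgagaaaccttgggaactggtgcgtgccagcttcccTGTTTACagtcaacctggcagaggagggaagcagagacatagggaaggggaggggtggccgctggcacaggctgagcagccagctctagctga
Atp6v1a: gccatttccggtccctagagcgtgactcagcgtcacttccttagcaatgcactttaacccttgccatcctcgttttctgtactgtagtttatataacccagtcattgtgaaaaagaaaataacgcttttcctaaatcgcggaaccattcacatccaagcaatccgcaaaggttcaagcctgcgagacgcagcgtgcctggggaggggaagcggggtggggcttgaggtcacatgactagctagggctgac
The motif lay 93 bases upstream of the Atp6v1b1 start and did not occur in the Atp6v1a run. Of the 6 member promoters in the table (Atp6v0a4, Atp6v1b1, Slc26a4, Foxi1, Atp6v1a and Atp6v1g3), 1 held it in the 300 bases from 250 before to 50 after the start. Over all 33469 promoters of that length, 1265 (3.78%) held it. The CpG dinucleotide count of the same window was 22 for Slc26a4, 13 for Atp6v1a, 7 for Foxi1, 5 for Atp6v1g3 and 3 for both Atp6v0a4 and Atp6v1b1, beside a median of 7 over all promoters. The windows of Slc26a4 and Atp6v1g3 lay inside their gene spans, as that of Atp6v1a did. Sequence before the outermost start of these genes was not read here. The motif and CpG counts are a description of the sequence.

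The values, on a log scale, were summarized by the authors over all 8 arrays by the distribution free weighted method (DFW), which compresses a probe set's differences by its spread. The median SD within diets was 2.22e-06 over all probe sets, so a difference in these values is not a log2 fold change. Each array is therefore placed by its distance from the control mean, in units of the probe set's pooled SD within diets (called SD units), and a diet difference on this scale is the standardized difference. A median of 1.53e-06 was found for the absolute difference between diets. The between-diet test was limma over all probe sets with Benjamini-Hochberg adjustment.

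All 12 member probe sets had a mean that was lower on the HP diet, and 0 of them passed the limma threshold of adjusted p under 0.05. Over all probe sets 57.7% of differences were below 0, 1.13% were called lower and 2.95% were called higher. Shares over all probe sets, here and below, cover every level, whereas 0 members were among the dimmest 25%. At an unadjusted limma p under 0.05, 7 of 12 member probe sets, of 5 genes (Slc26a4, Car2, Atp6v1a, Atp6v1g3 and Atp6v1b1), were lower and 0 were higher, beside 9.45% lower and 9.53% higher over all probe sets. In 5 of 12 member probe sets the highest HP array was lower than the lowest control array, and in 0 the diets were apart the other way, beside 5.81% and 7.09% of all probe sets. Rank products, the test named in the study's methods, called 3 member probe sets lower (Slc26a4, the dimmer Atp6v1a and the dimmer Atp6v1g3) and 0 higher, beside 2.3% lower and 3.4% higher over all probe sets. That test works on unscaled differences, and the 3 had an SD higher than 92.9%, 96.2% and 95.8% of probe sets, in that order. The shares over all probe sets are not matched for spread. The median standardized difference was -1.73 over the 12 probe sets and -0.21 over all probe sets. With each gene read by its brightest probe set, the medians were -1.82 over the 8 genes and -0.07 over all 14217 genes.

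**Figure D1:**
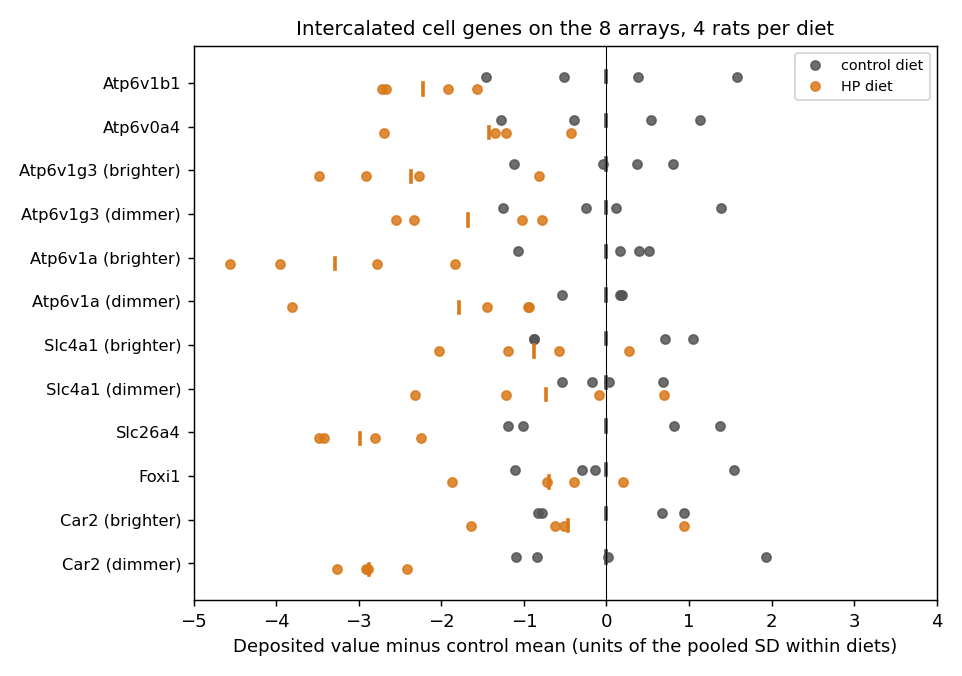
Each member probe set (vertical axis) with its 8 arrays as points, placed on the horizontal axis by the distance from the control mean in units of the pooled SD within diets. All 4 HP points lie left of the 4 control points for Slc26a4, Atp6v1b1, both Atp6v1a probe sets and the dimmer Car2 probe set, and the diets overlap in the other 7.

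**Figure D2:**
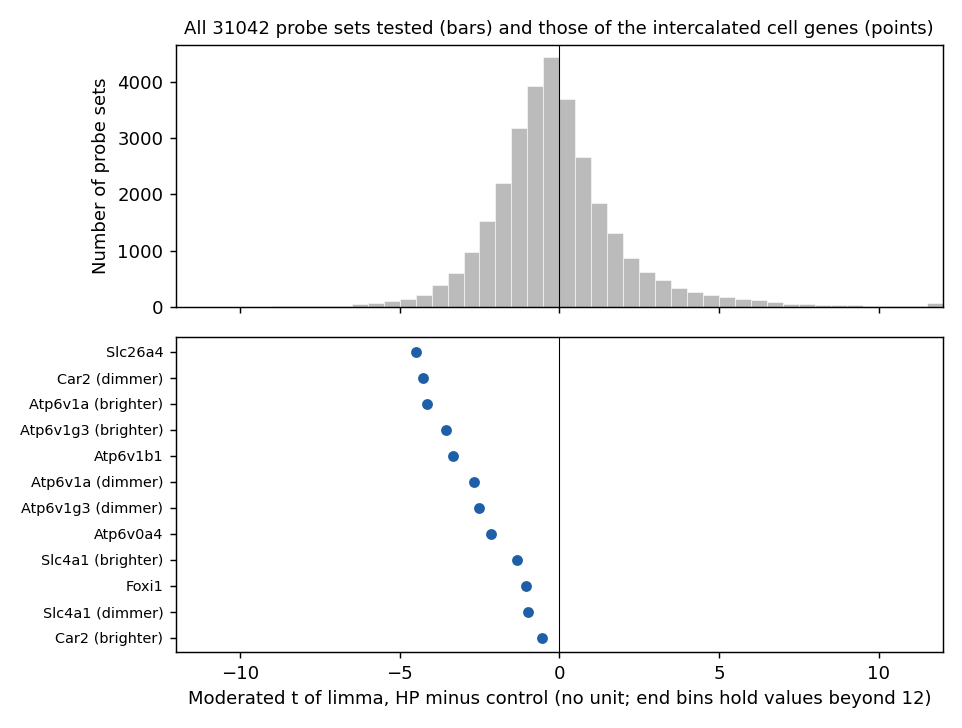
Above, the number of probe sets (vertical axis) by limma's moderated t of HP minus control (horizontal axis, no unit) over all 31042 tested, with values beyond 12 in the end bins. Below, the 12 member probe sets on the same axis, all left of 0, with Slc26a4 farthest left and the brighter Car2 probe set nearest 0.

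Slc26a4 (pendrin), the luminal chloride-bicarbonate exchanger of type B cells, had the lowest moderated t of the members, below which lay 1.49% of all probe sets. Its control arrays, replicates 1 to 4, stood at 0.82, -1.19, -1.01 and 1.37 SD units and its HP arrays at -2.80, -3.42, -2.25 and -3.48. The highest HP array was thus below the lowest control array. The standardized difference was -2.99 (95% interval -4.57 to -1.40, n = 4 per diet), with a limma p of 0.00309 and an adjusted p of 0.0629. The exact two-sided permutation p was 0.0286, the smallest that 4 arrays against 4 allow. In the deposited values the control mean was 9.17 and the difference -5.44e-05 (SE 1.29e-05). Its SD was higher than that of 92.9% of probe sets, and its rank product false discovery rate for lower values was 0.00624.

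Slc4a1 (AE1), the basolateral chloride-bicarbonate exchanger of type A cells, is also the band 3 protein of red blood cells. Its brighter probe set had control arrays at -0.88, -0.88, 0.71 and 1.05 SD units and HP arrays at -2.03, -1.19, 0.27 and -0.58, so the diets overlapped, with HP replicates 1 and 2 below all controls. The standardized difference was -0.88 (95% interval -2.47 to 0.70, adjusted p = 0.549 by limma). The dimmer probe set gave -0.73 (-2.54 to 1.07, adjusted p = 0.681 by limma), with HP arrays from -2.32 to 0.70 and control arrays from -0.54 to 0.69. Neither interval excluded 0 or a difference as large as 2 SD units. Among 6 measured red blood cell genes, 0 were called in either direction by limma (3 were lower and 0 higher at an unadjusted p under 0.05), 5 had a lower mean in the HP group, and the median standardized difference was -1.18. Epb42, a red cell membrane protein that binds band 3, stood at -2.59 (adjusted p = 0.119), and Alas2, the erythroid enzyme of haem synthesis, at -1.91 (adjusted p = 0.187). The summed level of the 6 red cell genes ran from 43.975 to 43.983 in control arrays and from 43.965 to 43.977 in HP arrays, and its part in the Slc4a1 values was not tested. Array values do not reach 0, so the absence of a marker could not be read from them.

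Atp6v1a, the A subunit whose nucleotide site hydrolyses ATP in the V1 sector, had its diets fully apart in both probe sets, with the HP group lower. In the brighter probe set the control arrays stood at 0.40, -1.07, 0.51 and 0.16 SD units and the HP arrays at -1.84, -4.56, -3.95 and -2.78. These gave a standardized difference of -3.28 (95% interval -5.16 to -1.40, limma p = 0.00461, adjusted p = 0.0778, exact permutation p = 0.0286). The dimmer probe set had control arrays at 0.17, -0.53, 0.17 and 0.19 and HP arrays at -1.45, -3.81, -0.95 and -0.94, where HP replicate 2 lay well apart from the other HP arrays. Its standardized difference was -1.78 (95% interval -3.37 to -0.20, limma p = 0.0326, adjusted p = 0.214, exact permutation p = 0.0286). In the deposited values the differences were -2.05e-06 for the brighter and -6.81e-05 for the dimmer probe set, with an SD higher than in 14.6% and 96.2% of probe sets respectively. Without HP replicate 2 the difference of the dimmer probe set was -4.24e-05. Rank products, which work on the unscaled differences, gave a false discovery rate of 0.00507 for the dimmer probe set and 1.10 for the brighter. The order of the probe sets therefore depended on whether a difference was read against its own spread.

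Atp6v1b1, the B subunit isoform of intercalated cells, whose human counterpart is a known gene for distal renal tubular acidosis with deafness, also had its diets apart. The control arrays stood at -0.51, 1.58, -1.45 and 0.38 SD units and the HP arrays at -2.72, -1.92, -2.67 and -1.57. The gap between the lowest control array and the highest HP array was small beside the control spread. The standardized difference was -2.22 (95% interval -3.81 to -0.63), with a limma p of 0.0133, an adjusted p of 0.135 and an exact permutation p of 0.0286. Its rank product false discovery rate was 0.254.

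Atp6v1g3, the kidney-enriched G subunit isoform of the pump's peripheral stalk, had diets that overlapped in both probe sets. In the brighter probe set the control arrays stood at 0.37, -0.05, -1.12 and 0.80 SD units and the HP arrays at -2.27, -2.91, -0.82 and -3.49, and HP replicate 3 lay above control replicate 3. The standardized difference was -2.37 (95% interval -3.96 to -0.78, limma p = 0.00976, adjusted p = 0.115, exact permutation p = 0.0571). The dimmer probe set gave control values of 0.12, -0.25, -1.26 and 1.39 and HP values of -0.79, -2.33, -1.03 and -2.55, with HP replicates 1 and 3 above control replicate 3. Its standardized difference was -1.68 (95% interval -3.26 to -0.09, limma p = 0.0411, adjusted p = 0.240, exact permutation p = 0.0857), with a rank product false discovery rate of 0.0157.

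Atp6v0a4, the a subunit isoform of the V0 sector found in intercalated cells and likewise known from human distal renal tubular acidosis, had an interval that included 0. Its control arrays stood at 1.13, -1.27, -0.39 and 0.54 SD units and its HP arrays at -1.21, -2.69, -0.42 and -1.35. HP replicates 1 and 3 lay above the lowest control array. This was a standardized difference of -1.42 (95% interval -3.01 to 0.17, limma p = 0.0719, adjusted p = 0.315, exact permutation p = 0.114).

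Foxi1 and Car2 complete the set. Foxi1 stood at -0.14, 1.55, -0.29 and -1.11 SD units in control arrays and at 0.20, -0.72, -0.39 and -1.87 in HP arrays, so the diets overlapped, with control replicate 2 above every HP array and HP replicate 4 below every control. Its standardized difference was -0.70 (95% interval -2.29 to 0.89, adjusted p = 0.651 by limma). The Car2 probe sets differed in size. The dimmer had control arrays at 1.93, -0.85, -1.10 and 0.02 and HP arrays at -2.89, -3.27, -2.41 and -2.91, all below the controls, with a standardized difference of -2.87 (95% interval -4.47 to -1.27, limma p = 0.004, adjusted p = 0.0716, exact permutation p = 0.0286). The brighter had control arrays from -0.83 to 0.94 and HP arrays from -1.64 to 0.94, with a standardized difference of -0.46 (95% interval -2.48 to 1.56, adjusted p = 0.842 by limma). Car2 is expressed in several nephron segments and in red blood cells as well as in intercalated cells.

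Among the HP arrays, replicate 2 was the lowest of its diet in 5 of 12 member probe sets and had a mean deviation of -2.47 SD units over them. The mean deviations of HP replicates 1, 3 and 4 were -1.73, -1.27 and -1.66. All 4 HP means were thus lower than every control mean, the controls running from -0.44 for replicate 3 to 0.41 for replicate 4. With single arrays left out in turn, limma called 0 or 1 member probe set lower, the 1 being the dimmer Car2 probe set without control replicate 1 (adjusted p = 0.0499). The adjusted p of Slc26a4 ran from 0.0724 to 0.146 over these 8 fits and that of the brighter Atp6v1a probe set from 0.0825 to 0.181. The difference of every member probe set stayed below 0 in these fits. It came nearest to 0 at -9.91e-07 for Foxi1 without control replicate 2, at -3.42e-08 for the brighter Car2 probe set without HP replicate 2, and at -2.51e-05 and -1.51e-07 for the brighter and dimmer Slc4a1 probe sets without HP replicate 1.

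The other V-ATPase subunits, among them isoforms that sit in the same places of the pump as the members, were measured for 19 of 20 listed genes. Limma called 1 higher (Tcirg1) and 1 lower (Atp6v0a2), beside 4.58% of all genes higher and 1.23% lower, and 15 of 19 had a lower mean in the HP group, beside 52.4% of all genes. At an unadjusted limma p under 0.05, 3 of the 19 were lower and 2 higher, beside 9.45% and 9.53% of all probe sets. Every HP array was below every control array in 5 and above in 2, beside 5.81% and 7.09% of all probe sets. The standardized differences ran from -4.72 for Atp6v1h (adjusted p = 0.0580 by limma) to 4.93 for Atp6ap1 (adjusted p = 0.180), with a median of -0.97. Atp6v1c2 stood at -2.63 (adjusted p = 0.0892). In Atp6v1h and Atp6v1c2 every HP array was below every control array, and in Atp6ap1 every HP array was above. Atp6v0a2, an a subunit isoform of endosomes and Golgi, stood at -1.30, 0.13, 0.76 and 0.41 SD units in control arrays and at -4.93, -4.40, -2.45 and -4.35 in HP arrays (standardized difference -4.03, adjusted p = 0.0334 by limma), but a second probe set of it gave 0.07 (adjusted p = 0.976). The Atp6v0a2 call held in 2 of 8 fits with an array left out, and its adjusted p was highest, at 0.0945, without control replicate 3.

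Tcirg1, the a subunit isoform of osteoclasts and of lysosomes in macrophages, was called higher, a sign that turned when each array was centred on its median or quantile normalized. Median centring lowered the difference of every probe set by the same amount, so any deposited difference smaller than that shift fell below 0. The Tcirg1 control arrays stood at -0.95, -0.85, 0.72 and 1.08 SD units and its HP arrays at 3.59, 2.56, 2.91 and 4.71, all above the controls. Its standardized difference was 3.44 (95% interval 1.85 to 5.04, adjusted p = 0.0423 by limma), and the second probe set gave 2.06 (adjusted p = 0.159). The Tcirg1 call was lost in each of the 8 fits with an array left out (adjusted p 0.0579 to 0.110, the highest without HP replicate 1).

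The isoforms that sit in the same places of the pump as the members were spread on both sides of 0 and none of the following was called. Atp6v1b2, the B subunit isoform of most cells, stood at 0.11 (95% interval -1.72 to 1.94, adjusted p = 0.968 by limma), a sign that turned with median centring, quantile normalization and 3 of the fits with an array left out. Atp6v0a1 stood at -0.85 (adjusted p = 0.616) and Atp6v0d1, the d subunit isoform of most cells, at -1.22 (adjusted p = 0.527). Among the G subunit isoforms, Atp6v1g1 stood at 0.11 (adjusted p = 0.986), a sign that turned with median centring and 4 of the fits with an array left out, and Atp6v1g2 at -0.63 (adjusted p = 0.870). The difference between a member and its partner isoform was not tested.

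**Figure D3:**
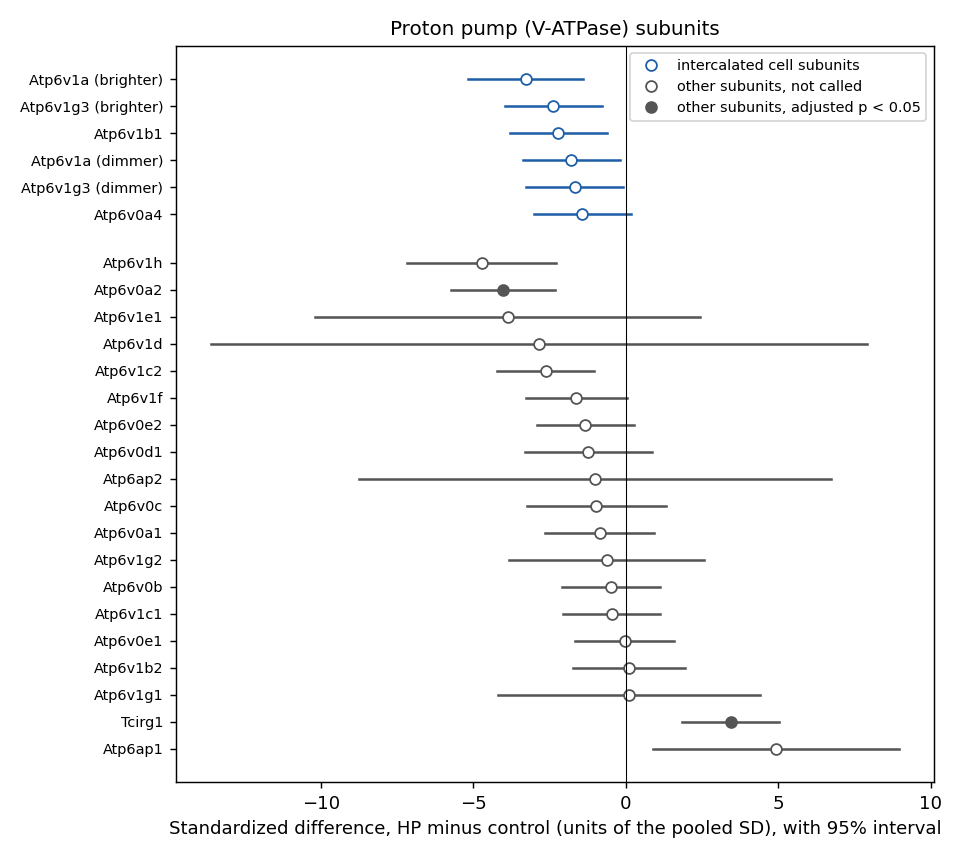
Standardized difference of HP minus control (horizontal axis, pooled SD units, point) with its 95% interval (line) for the intercalated cell pump subunits (blue) and the other V-ATPase subunits read by their brightest probe set (grey, filled where limma's adjusted p was under 0.05). All 6 points of the member subunits lie left of 0, and of the grey points Atp6v0a2 and Tcirg1 are filled, on opposite sides.

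The genes that assemble the pump or regulate it were measured for 9 of 11 entries, and limma called 0 in either direction (at an unadjusted p under 0.05, 2 were lower and 0 higher), with a median of -0.77. Rogdi and Dmxl2, both parts of the complex that joins V1 to V0, stood at -2.67 (adjusted p = 0.0890) and -2.44 (adjusted p = 0.108). The other bicarbonate and anion exchangers, 12 measured of 17, had a median of -0.17 and 0 calls (1 lower and 1 higher at an unadjusted p under 0.05). Slc26a6, an apical anion exchanger of the proximal tubule, stood at 2.44 (adjusted p = 0.132), with a sign that turned under median centring and quantile normalization, and Slc26a1, a basolateral sulphate exchanger of that segment, at -2.02 (adjusted p = 0.166). Of the other carbonic anhydrases, 13 measured of 15, limma called 0 (2 lower and 2 higher at an unadjusted p under 0.05). Car4, the membrane-anchored enzyme of the tubule lumen, stood at -2.90 (adjusted p = 0.0682) and Car3, best known from muscle and fat, at 2.14 (adjusted p = 0.145). Median centring called Car3 higher (adjusted p = 1.69e-30 by limma). The deposited Car3 difference was 0.00702 (SE 0.00232), and a p that small cannot come from this spread with 4 arrays per diet. Quantile normalization called 4 genes of the list lower. Rank products gave false discovery rates of 0 for Car3 as higher and 0.0074 for Car4 as lower.

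Further intercalated cell genes had calls in neither direction. Of 19 listed, 13 were measured, 8 had a lower mean in the HP group, limma called 0 (1 lower and 1 higher at an unadjusted p under 0.05) and the median was -0.28. Tmem213, a small membrane protein of these cells, stood at -2.21 (adjusted p = 0.137) and P2ry14, a receptor for UDP-glucose, at 2.17 (adjusted p = 0.141), the latter with a sign that turned under median centring and quantile normalization. Genes that set intercalated against principal cell fate had 9 of 11 measured, 0 calls (0 lower and 1 higher at an unadjusted p under 0.05) and a median of 0.49. Hes1, a target of the Notch signal that favours principal cells, stood at 2.20 (adjusted p = 0.137) and Tfcp2l1, a factor of both cell types, at 1.16 (adjusted p = 0.419), and both signs turned under median centring.

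The neighbouring epithelial cells were compared through their own genes. Of 10 principal cell and collecting duct genes, limma called 1 higher, Scnn1b, the beta subunit of the epithelial sodium channel, and the median was 0.28. At an unadjusted limma p under 0.05, 1 was lower and 1 higher. The lower was Avpr2, at -1.83 (adjusted p = 0.204), with every HP array below every control array. Scnn1b had control arrays at 0.51, 1.50, -1.66 and -0.35 SD units and HP arrays at 3.47, 3.64, 4.05 and 2.96 (standardized difference 3.53, adjusted p = 0.0442 by limma). Its call held in 1 of 8 fits with an array left out (adjusted p 0.0450 to 0.109), and its sign turned under median centring and quantile normalization. Of 8 measured genes of the distal convoluted and connecting tubule, 7 had a lower mean in the HP group, 0 were called (2 lower and 0 higher at an unadjusted p under 0.05) and the median was -0.64, with the sodium-chloride cotransporter Slc12a3 at -2.72 (adjusted p = 0.0822) and Egf at -2.28 (adjusted p = 0.126). Of 10 proximal tubule genes, 9 had a lower mean, 0 were called (3 lower and 0 higher at an unadjusted p under 0.05) and the median was -1.35, with the dicarboxylate carrier Slc13a3 at -3.04 (adjusted p = 0.0604) and the organic anion transporter Slc22a6 at -2.01 (adjusted p = 0.168). The part of the proximal tubule genes in the members' values was not tested.

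Macrophage genes moved with the diet in the other direction. Of 13 measured, limma called 11 higher and 0 lower, 12 had every HP array above every control array, and the median was 4.17. Ptprc (CD45) stood at 6.20 (adjusted p = 0.00835), Aif1 at 6.13 (adjusted p = 0.0086), Cd53 at 5.38 (adjusted p = 0.0125) and Cd14 at 4.56 (adjusted p = 0.0207). A second, dimmer probe set of Aif1 went the other way, at -2.26, and was not called. The uncalled genes were Itgam at 2.46 and Cd163 at -0.26. Under median centring the count was 5, the calls of Ptprc and Aif1 being lost (adjusted p = 0.975 for both) and those of Cd53 and Cd14 kept, and under quantile normalization Aif1 was lost (adjusted p = 0.0649). The count of 11 was 3 to 5 without any single control replicate or without HP replicates 1 or 3, and 9 and 10 without HP replicates 2 and 4. The summed level of the list ran from 102.818 to 102.822 in control arrays and from 102.835 to 102.849 in HP arrays. Over the 8 member genes the summed level ran from 80.3532 to 80.3533 in control arrays and from 80.3531 to 80.3532 in HP arrays. The part of the macrophage genes in the values of the members and of Tcirg1 was not tested.

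Osteoclast and lysosome genes were included because macrophage-lineage cells use V-ATPase too. Of 9 measured osteoclast genes, limma called 1 higher, the transcription factor Nfatc1 (3.52, adjusted p = 0.0399), with a median of -0.16 and with a sign of Nfatc1 that turned under median centring and quantile normalization. At an unadjusted limma p under 0.05, 1 osteoclast gene was lower and 2 were higher. Ctsk was not called but stood at 3.07 (adjusted p = 0.0580), with every HP array above every control array. Of 11 measured lysosome genes, limma called 3 higher, the cathepsins Ctsd (7.32, adjusted p = 0.00604), Ctss (3.84, adjusted p = 0.0318) and Ctsb (3.54, adjusted p = 0.0393), and 0 lower (at an unadjusted p under 0.05, 1 was lower), with a median of 0.80 and with a sign of Ctsb that turned under median centring. With an array left out, the call held in 8 of 8 fits for Ctsd, 2 for Ctss, 0 for Ctsb and 1 for Nfatc1. The Ctsd and Ctss calls were lost under median centring (adjusted p 0.979 and 0.975) and under quantile normalization (adjusted p 1.00 and 0.113). Atp6v0d2, the member best known from both osteoclasts and intercalated cells, had no probe set.

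**Figure D4:**
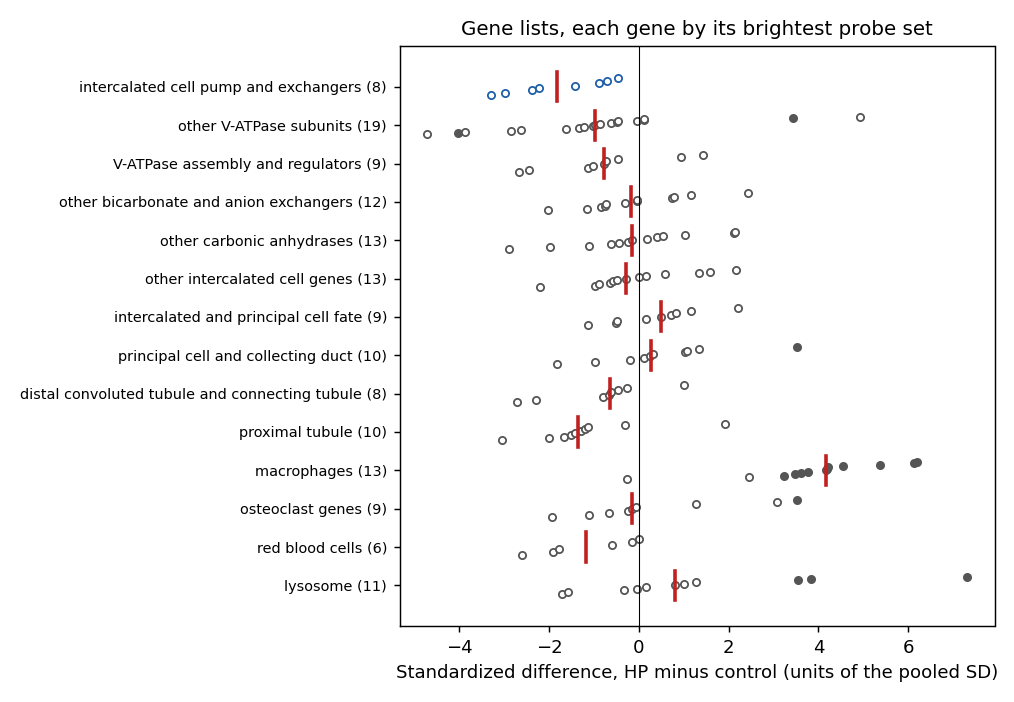
Standardized difference of HP minus control (horizontal axis, pooled SD units) of every measured gene, by its brightest probe set, in each gene list (vertical axis), with filled points for limma's adjusted p under 0.05 and a red bar at each list's median. The median is -1.82 for the members, -1.35 for the proximal tubule list, -0.28 for the other intercalated cell genes and 4.17 for the macrophage list.

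The named probe sets whose pattern over the 8 arrays lay nearest to that of Atp6v1b1, by the root mean square distance of values scaled to a mean of 0 and an SD of 1, were those of Psmd9 (0.202), Rprd1a (0.265) and Atp2a2 (0.272), beside a median of 1.28 over all other named probe sets. The other 11 member probe sets lay at 0.796 to 1.16 from it, with the brighter Atp6v1g3 probe set nearest. The distance mixes the diet difference with the differences between rats of a diet.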

How the data were processed

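Kidney RNA was measured on Affymetrix rat arrays. The authors summarized the probes of all 8 arrays together by DFW and deposited the result, taken here as log2 values. Their base is not given in the sources used here. Probe sets were named through the platform annotation: of 31099, 20832 had 1 gene symbol, 436 had several and 9831 were unnamed. The 57 Affymetrix control probe sets were left out. The other 31042 entered limma 3.58.1 under R 4.3.3 (lmFit, eBayes, prior degrees of freedom 0.772), 4 arrays per diet. Every adjusted p comes from this fit unless another is named. For the exact permutation tests, two-sided, the 8 arrays were arranged in all 70 ways. Rank products used 16 pairs of arrays and 1000 permutations. Intervals are at 95%. The precision is limited by the number of arrays.

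Members and the 13 gene lists (142 of 172 entries measured, counting repeats) were chosen with earlier results of these data known. Outside the member list, each gene was read by its probe set of highest mean. All members were named. In other lists up to 4 called genes of smallest adjusted p, or up to 2 of largest moderated t where none was called, and the isoforms that share a place in the pump with a member were named. Atp6v0a2 is also the lower call of its list. Outside this rule, Atp6v1h, Atp6v1c2, Atp6ap1, Ctsk, Avpr2 and the uncalled macrophage genes were named as well. Alternatives were quantile normalization, median centring, leaving out the dimmest 25% of probe sets, trend and robust moderation, a replicate block, rank products, all probe sets of a gene, and leaving out each array. The labels do not say how arrays were grouped in hybridization, so batches were not analysed here. Same-numbered arrays of the 2 diets correlated at 0.121, 0.0887, 0.0626 and 0.00148 in their deviations from the diet means. Arrays of different numbers correlated at -0.165 to 0.0842. These values do not settle whether the numbers mark pairs. The labels give them only as biological replicates, so the main fit took them as names. Code was tested on simulated data.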

Additional observations from a re-analysis of the deposited data

Results flagged for a closer look

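In the dimmer Atp6v1a probe set, control replicate 2 lay far below the other 3 control arrays: its gap to the nearest was 0.968 of the whole control range. This was 1 of 88 groups of 4 arrays checked over 44 named probe sets. A group was flagged when its gap passed a cut-off that chance alone passes in about 5% of groups. The gap of 0.968 lay above that cut-off, and how often chance gives a gap this large was not computed. Control replicate 2 stood at -0.53 SD units and the other control arrays at 0.17 to 0.19.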

How the results depend on the processing

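All 12 member differences stayed below 0 under median centring, but the adjusted p of each was then 0.975. Median centring lowered every difference by the same amount, so differences already below 0 could not turn. The kept signs are therefore no test of the members. Array medians ranged over 0.000185, above the median SD of 2.22e-06. Members called lower numbered 2 under quantile normalization (7 of 12 probe sets were then tied over all arrays), 3 by rank products and 0 to 1 with an array left out, and 0 otherwise. Of the 2, the brighter Atp6v1g3 probe set was then tied within each diet, so its call rests on no spread between rats. The other was the dimmer Slc4a1 probe set, with a limma adjusted p of 0.00403 after quantile normalization and 0.681 as deposited. 0 were called higher under any setting run. With the replicate number as a block, 0 members were called (adjusted p 0.118 to 0.832) and calls over all probe sets fell to 254 higher and 115 lower, from 915 and 350. Among other V-ATPase subunits the higher count was 0 under median centring, quantile normalization, the block and each left-out array (0 to 0). The lower count was 0 under median centring and the block, 2 with dim probe sets left out, 3 under quantile normalization and 0 to 1 with an array left out. Quantile normalization, which called 7714 of all probe sets lower, called 3 genes lower in each of the other exchangers, the other intercalated cell genes, the distal tubule, the osteoclast and the red cell lists, and 4 among the carbonic anhydrases, 2 among fate genes and 1 among principal cell genes. Median centring called 1 red cell gene lower, and the block called Car4 lower. Lysosome genes called higher numbered 0 under median centring, quantile normalization and the block. Macrophage genes called higher numbered 5 under median centring, 0 with the block and 3 to 10 with an array left out.

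Signs turned under median centring and quantile normalization for Tcirg1 (-4.82e-05 and -0.000183), Slc26a6 (-5.88e-05 and -0.000631), P2ry14 (-4.76e-05 and -9.98e-05), Scnn1b (-5.64e-05 and -2.34e-05), Nfatc1 (-4.70e-05 and -0.000269) and Atp6v1b2 (-6.10e-05 and -0.00134). They turned under median centring alone for Hes1 (-3.05e-05), Tfcp2l1 (-3.15e-05), Ctsb (-4.56e-05) and Atp6v1g1 (-6.10e-05). The turns under median centring follow from its common shift, which was larger than each of these deposited differences. With an array left out, the difference ran from -2.40e-07 to 4.87e-07 for Atp6v1b2 (below 0 without control replicates 3 or 4 or HP replicate 1) and from -3.97e-08 to 9.47e-08 for Atp6v1g1 (below 0 without replicate 2 or 4 of either diet). The causes of the turns under the other settings were not tested.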
